A study of Mus musculus with 12 samples.

Results

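The genes described here are the 10 members of the Myc, Max and Mxd network that the study's expression table lists (Myc, Mycn, Max, Mxd1, Mxd3, Mxd4, Mxi1, Mnt, Mga and Mlx). They were picked by symbol out of 24881. RNA-seq had been carried out on mouse embryonic stem cells (ESCs) of the R1 line that carry the FUCCI reporters, fluorescent proteins that mark cell cycle phases, after sorting for G1 phase. There were 4 groups of 2 libraries: WT and P53-/- ESCs grown in medium with serum and LIF, and the same genotypes grown in 2i, a defined N2B27 medium with LIF and the kinase inhibitors PD0325901 (against MEK) and CHIR99021 (against GSK3). The reporters and LIF were thus common to all groups. The P53-/- ESCs were CRISPR/Cas9 clones, of which clones 1 and 2 served for RNA-seq, so that effects of the genotype and of these clones cannot be told apart. Which clone gave which column is not stated, and library 1 and library 2 of a group are simply its first and second column. Levels are given in FPKM (fragments per length of transcript, relative to all fragments mapped in the library), which allows levels of different genes to be compared per length.

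MYC and its paralogue MYCN are transcription factors that bind DNA, mostly at E-boxes, only as dimers with MAX. MAX also pairs with MXD1, MXI1, MXD3, MXD4 and MNT, which recruit SIN3 corepressors and act against MYC at shared sites, and with MGA, which brings it into the Polycomb complex PRC1.6, a repressor of germline genes in ESCs. MLX, a relative of MAX, pairs with MNT, some MXD proteins and the glucose-responsive factors MLXIP and MLXIPL. In ESCs Myc is known as a target of LIF-STAT3 and of MEK-ERK signaling and as a driver of growth and ribosome production.

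An exact E-box, CACGTG, which is its own reverse complement, lay in 4 of the 11 promoter windows (250 bases before to 50 bases after a start site) that RefSeq (GRCm38.p6) gives for 9 of the 10 genes, against 7.15% of 32851 windows of the same length. The 4 stretches are shown because they are the sequence that the members' own proteins recognise, in the promoters of members themselves, and capitals mark the E-box. They lie at chr5:34187897-34187956 on the minus strand (Mxd4, the E-box starting 219 bases before the start site), chr11:74830774-74830833 on the plus strand (Mnt, 123 bases before), chr11:101087223-101087282 on the plus strand (Mlx, 40 bases before) and chr12:76962219-76962278 on the minus strand (Max, 3 bases before).
Mxd4: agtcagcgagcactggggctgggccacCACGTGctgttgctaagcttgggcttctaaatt
Mnt: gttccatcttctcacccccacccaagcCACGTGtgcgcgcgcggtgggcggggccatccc
Mlx: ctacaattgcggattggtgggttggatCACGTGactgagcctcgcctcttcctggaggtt
Max: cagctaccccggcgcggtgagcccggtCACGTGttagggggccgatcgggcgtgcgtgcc
A P53 half-site in the form searched (its usual degenerate consensus, on both strands) was in 0 of the 11 windows and in 8.36% of all windows, and a STAT site (TTCNNNGAA, both strands) in 0 of 11 and 8.3%. These matches are descriptions of the windows only, and binding was not analysed here. The gene without a window was Myc, so its promoter was not searched for any of these sites.

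The libraries were estimated to hold 5210000 to 13400000 fragments, up to a factor common to all of them. Trp53, the targeted gene, had 77.6 and 75.1 FPKM in the WT serum libraries against 16.8 and 3.68 in their P53-/- counterparts, and 26.8 and 33.7 FPKM in the WT 2i libraries against 7.25 and 1.88, so that each P53-/- library lay below both WT libraries of its culture. The 8 pluripotency markers examined summed to 3114 to 4289 FPKM per library, and the 7 primitive endoderm markers to 1.28 to 4.36. Of the 8 pluripotency markers, 1 was called higher (27.2% of all genes) and 1 lower (28.6%) in 2i than in serum in WT. In P53-/- ESCs 1 was higher (28% of all genes) and 4 were lower (30.1%). Between genotypes in 2i Klf4 was lower in P53-/- ESCs (-0.96 on the log2 scale, limma adjusted p = 0.00782). Gata4, the 1 endoderm marker above the filter, was higher in 2i in both genotypes (1.19 and 1.81). Of 7 fibroblast markers, Col3a1 and Postn were at 0 in every library and the sum of the list was 0.761 to 1.34 FPKM in 2i and 7.73 to 10.5 in serum, where Thy1 made up nearly all of it (7.55 to 10.5). The 7 formative and mesoderm markers summed to 19.9 FPKM in WT 2i library 1 and to at most 15.3 in the other libraries. Of the 4 above the filter, T was higher in 2i in both genotypes (3.02 and 2.90). Pou3f1 was lower in 2i in both (-1.05 in WT and -1.59 in P53-/- ESCs), and Eomes was lower in P53-/- ESCs (-0.77). The part of these markers in the differences of the members was not tested. The WT 2i libraries differed most within a group: 17.8% of the 12572 genes tested differed more than 1.5-fold between them, against 9.82% to 15.1% in the other groups, and so did 5 members (Myc, Mycn, Mxd1, Mxd3 and Mxd4). Where leaving out a library ended or gave a member's call, or moved a count of listed genes called between genotypes by over 1.5 times, this is given beside the result.

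All 10 members were expressed above the filter for testing, a mean of 0.5 FPKM over the 8 libraries. Myc passed it only through its serum libraries, with a mean of 0.467 FPKM over the 4 2i libraries and 24.3 in serum. In WT serum the order of mean levels was Max, Mga, Mlx, Mycn, Myc, Mxi1, Mxd3, Mnt, Mxd4 and Mxd1, from 46.7 down to 0.811 FPKM. In that order the libraries of Mlx and Mycn and those of Mycn and Myc overlapped, and all other neighbours were apart. In WT 2i the order began with Mlx (30.6 ± 5.31 FPKM, SD, n = 2) and Mycn (21.5 ± 9.68), Max followed behind Mga at 14.2 ± 1.39, and Myc was last at 0.528 ± 0.519. There the only neighbours whose libraries did not overlap were Mga and Max, Max and Mxi1, Mxd4 and Mnt, and Mxd3 and Mxd1. In P53-/- ESCs the order again opened with Max and Mga in serum, and with Mycn and Mlx, whose libraries overlapped, in 2i.

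**Figure D1:**
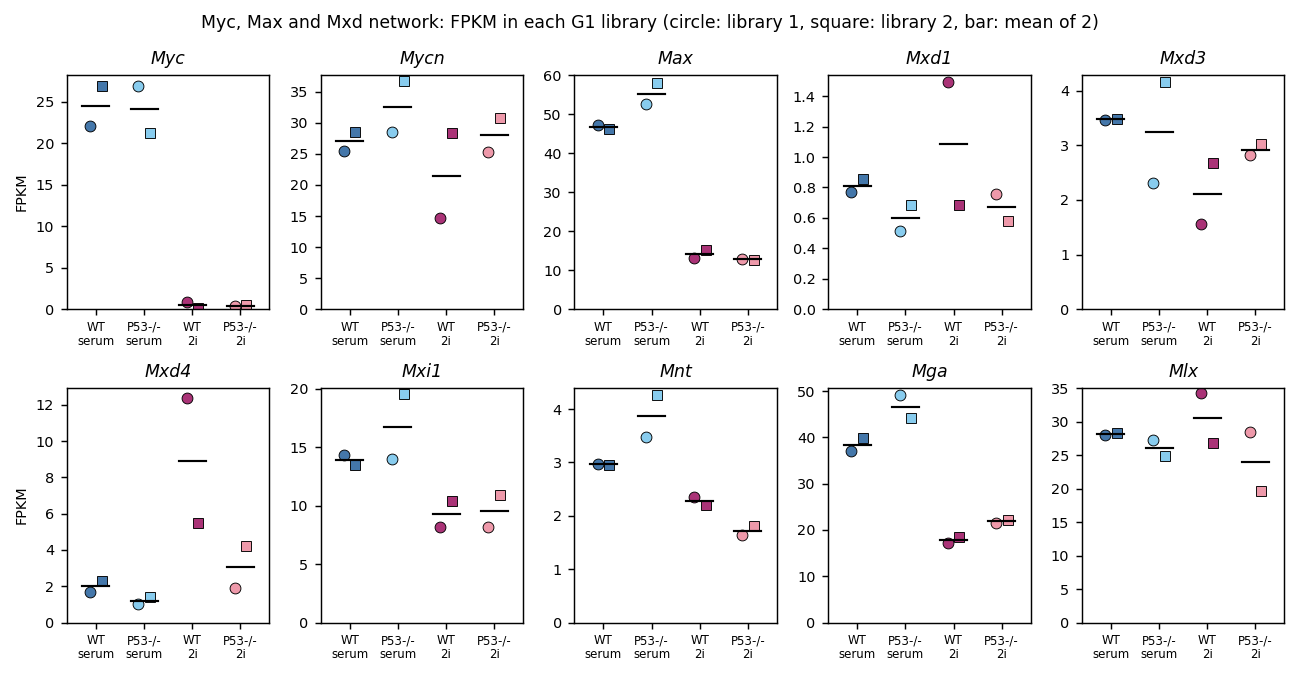
FPKM (linear axes from 0, 1 panel per member) in the 8 G1 libraries, with a circle for library 1, a square for library 2 and a bar for the mean of both. Myc falls from 21.2 to 26.9 FPKM in serum to under 1 in 2i in both genotypes, Max and Mga are lower in every 2i library, and Mxd4 is highest in the WT 2i libraries.

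The first question was how the network differs between serum and 2i in G1 cells. In WT ESCs, 6 of the 10 members passed the test (limma on log2(FPKM + 0.1), a Benjamini-Hochberg adjusted p below 0.1 together with a more than 1.5-fold change), a share close to that of all genes, of which 55.7% were called. Myc, Max, Mga, Mxd3 and Mxi1 were lower in 2i (5 of 10, with 28.6% of all genes called lower) and Mxd4 was higher (1 of 10, with 27.2% of all genes called higher). In P53-/- ESCs, 6 of 10 were called as well, against 58.2% of all genes: Myc, Max, Mga, Mxi1 and Mnt were lower in 2i (30.1% of all genes) and Mxd4 was higher (28% of all genes). The median log2 fold change of the members was -0.50 in WT and -0.50 in P53-/- ESCs, beside -0.017 and -0.033 for all genes tested.

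Among the activators, Myc carried the largest difference of the network. It had 22.0 and 26.9 FPKM in the WT serum libraries, 26.9 and 21.2 in their P53-/- counterparts, 0.895 and 0.161 in the WT 2i libraries, and 0.349 and 0.464 in the P53-/- ones. Every 2i library was thus far below every serum library, and the genotypes overlapped within each culture. On the log2(FPKM + 0.1) scale the difference of Myc between 2i and serum was -5.58 in WT (SE 0.53, 47.9-fold, limma adjusted p = 0.000116) and -5.58 in P53-/- ESCs (SE 0.53, 47.7-fold, adjusted p = 0.00010). Of the 12572 genes tested, 75 had a lower log2 fold change than Myc in WT and 57 in P53-/- ESCs.

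The size of the Myc difference depended on how its low 2i values were treated, though its call did not. The 2i values correspond to about 17 and 2 fragments in the WT libraries and 8 and 6 in the P53-/- libraries, taking the longest transcript of 2338 bases and the estimated depths as they stand. If the factor common to all libraries is not 1, these numbers scale with it and the intervals change. On this basis 95% exact Poisson intervals, which cover counting error only, ran from 0.522 to 1.43 and from 0.0195 to 0.582 FPKM in WT, and from 0.15 to 0.687 and from 0.170 to 1.01 FPKM in P53-/-. With a pseudocount of 1 in place of 0.1, the log2 difference was -4.09 in WT and -4.15 in P53-/- ESCs. Without WT 2i library 1 the WT difference was -6.55, and without library 2 it was -4.62. In bulk RNA, fewer cells with the transcript and less transcript per cell cannot be told apart.

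Mycn, the paralogue, had 25.5 and 28.6 FPKM in the WT serum libraries, 28.5 and 36.7 in their P53-/- counterparts, 14.7 and 28.3 in the WT 2i libraries, and 25.3 and 30.7 in the P53-/- ones. The cultures overlapped, with the lowest value in WT 2i library 1. The log2 difference between 2i and serum was -0.40 in WT (95% interval -1.07 to 0.27, limma adjusted p = 0.259) and -0.21 in P53-/- ESCs (-0.88 to 0.46, adjusted p = 0.547), and neither was called. Without WT 2i library 1 the WT difference was 0.071, and without library 2 it was -0.88 and passed the test (adjusted p = 0.0120). Myc made up 36.6% to 48.6% of the summed Myc and Mycn FPKM in the serum libraries and 0.565% to 5.76% in the 2i libraries. The sum itself was 47.5 to 57.9 FPKM in serum and 15.6 to 31.2 in 2i.

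By the root-mean-square difference of centred log2(FPKM + 0.1) over the 8 libraries, the genes most like Myc were Gap43 (0.43), Myrf (0.51) and Soga3 (0.63), with a median of 2.85 over all genes. Those most like Mycn were Nmt2 (0.10), Smagp (0.11) and Socs6 (0.11), with a median of 0.61. In the 2i libraries Gap43 had 0 to 0.103 FPKM, Myrf 0 to 0.0651 and Soga3 0.138 to 0.218. The added 0.1 thus weighs heavily on their log2 values there, and so on their likeness to Myc.

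Max, the shared partner, had 47.2 and 46.1 FPKM in the WT serum libraries, 52.5 and 57.9 in their P53-/- counterparts, 13.2 and 15.2 in the WT 2i libraries, and 12.8 and 12.7 in the P53-/- ones. Its cultures were widely apart and its replicates close. Max had a log2 difference of -1.71 in WT (SE 0.12, 3.28-fold lower in 2i, limma adjusted p = 4.01e-05) and of -2.10 in P53-/- ESCs (SE 0.12, 4.30-fold, adjusted p = 1.99e-05). In every 2i library it fell from the head of the network to below Mycn, Mga and Mlx. Its exons overlap no other annotated gene.

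**Figure D2:**
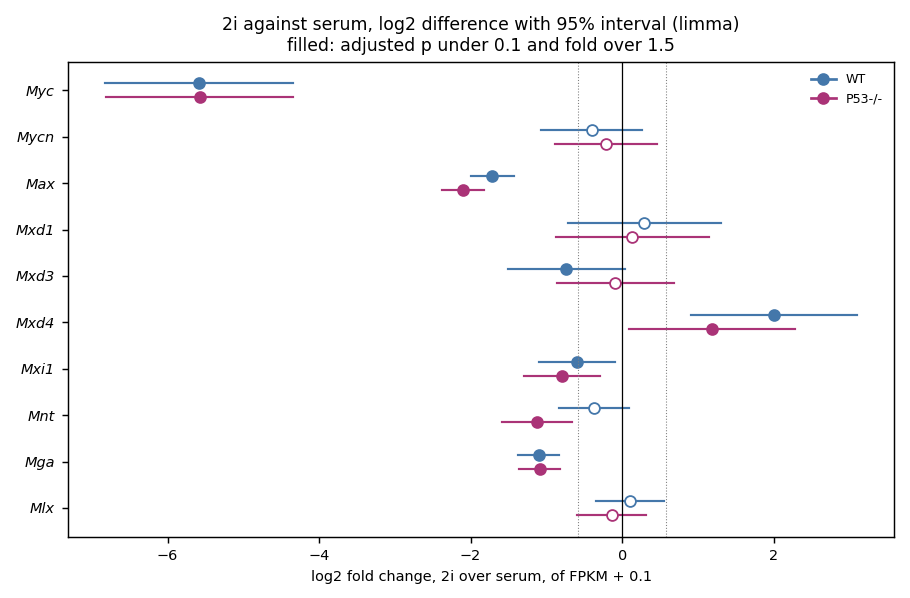
Log2 fold change of FPKM + 0.1 in 2i over serum (x axis) for each member (y axis), with 95% intervals from limma, for WT and P53-/- ESCs; filled points passed the test. Myc lies beyond -5 in both genotypes, Max near -2 and Mga near -1, and Mxd4 alone lies to the right with intervals above 0.

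Of the repressor members, Mga had 37.1 and 39.8 FPKM in the WT serum libraries, 49.1 and 44.1 in their P53-/- counterparts, 17.2 and 18.5 in the WT 2i libraries, and 21.6 and 22.2 in the P53-/- ones, with no overlap between cultures. Its log2 difference was -1.10 in WT (SE 0.12, 2.15-fold lower in 2i, limma adjusted p = 0.000175) and -1.09 in P53-/- ESCs (SE 0.12, 2.12-fold, adjusted p = 0.000160). The ratio of Max to Mga FPKM was 1.07 to 1.31 in the serum libraries and 0.572 to 0.822 in the 2i libraries, which did not overlap. The exons of Mga overlap no other annotated gene.

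Mxd4 was the member called higher in 2i. It had 1.70 and 2.29 FPKM in the WT serum libraries, 0.994 and 1.43 in their P53-/- counterparts, 12.4 and 5.46 in the WT 2i libraries, and 1.91 and 4.22 in the P53-/- ones. Both WT 2i libraries lay above all others, although they differed from each other more than 2-fold, and P53-/- 2i library 1 lay within the range of WT serum. The log2 difference between 2i and serum was 2.00 in WT (SE 0.47, 4.01-fold, limma adjusted p = 0.00740) and 1.19 in P53-/- ESCs (SE 0.47, 2.28-fold, adjusted p = 0.0578). Without WT 2i library 1 the WT difference was 1.42 (adjusted p = 0.0509), and without library 2 it was 2.59. In P53-/- ESCs the difference was 0.63 without P53-/- 2i library 2 (adjusted p = 0.331) and 0.95 without P53-/- serum library 1 (adjusted p = 0.235), and neither was called. Mxd4 shares 13.2% of its exon bases with an antisense gene, Gm42846, and how strand was treated in counting is not given in the sources used here.

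Mxi1, the most abundant of the Mxd genes in serum, had 14.3 and 13.5 FPKM in the WT serum libraries, 14.0 and 19.5 in their P53-/- counterparts, 8.13 and 10.4 in the WT 2i libraries, and 8.21 and 10.9 in the P53-/- ones. All 2i libraries lay below all serum libraries. The log2 difference was -0.59 in WT, 1.51-fold and so just past the threshold (limma adjusted p = 0.0450), and -0.80 in P53-/- ESCs (1.74-fold, adjusted p = 0.0131). Without WT 2i library 1 the WT difference was -0.41, and the WT call was lost without that library (adjusted p = 0.212) or either WT serum library (0.178 and 0.120). Without P53-/- serum library 2 the P53-/- difference was -0.56, under 1.5-fold, and was not called. Mxi1 has 2.91% of its exon bases in common with a gene on the other strand.

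Mnt, which can pair with both MAX and MLX, had 2.97 and 2.96 FPKM in the WT serum libraries, 3.47 and 4.27 in their P53-/- counterparts, 2.34 and 2.20 in the WT 2i libraries, and 1.63 and 1.81 in the P53-/- ones. The cultures did not overlap in either genotype. Its log2 difference was -1.12 in P53-/- ESCs (SE 0.20, 2.17-fold lower in 2i, limma adjusted p = 0.00186), while the WT difference of -0.37 (95% interval -0.83 to 0.093, adjusted p = 0.145) was not called.

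Mxd3, Mxd1 and Mlx overlapped between cultures over both genotypes. Mxd3, which is known from dividing cells, had 3.47 and 3.48 FPKM in the WT serum libraries, 2.31 and 4.16 in their P53-/- counterparts, 1.55 and 2.68 in the WT 2i libraries, and 2.82 and 3.02 in the P53-/- ones. It was called lower in WT 2i (-0.74, SE 0.33, limma adjusted p = 0.0889) and not in P53-/- 2i (-0.088, 95% interval -0.86 to 0.68), and without WT 2i library 1 the WT difference was -0.36 with an adjusted p of 0.409. The call was also lost without either WT serum library and without either P53-/- 2i library. Mxd1, known from differentiating cells, stayed between 0.516 and 1.49 FPKM in all libraries, with log2 differences of 0.29 (-0.71 to 1.30) in WT and 0.14 (-0.87 to 1.14) in P53-/- ESCs. Mlx lay between 19.6 and 34.3 FPKM, with log2 differences of 0.11 (-0.35 to 0.56) and -0.14 (-0.59 to 0.31). Mxd3 shares 7.91% of its exon bases with Prelid1 and Mlx 19.4% with Psmc3ip, each on the opposite strand.

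Over the 4 2i and the 4 serum libraries together, Myc, Max, Mxi1, Mnt and Mga did not overlap and were lower in 2i, 5 of 10 members beside 32% of all genes, and 0 of 10 were without overlap and higher, beside 28.8% of all genes. The summed FPKM of the 4 Mxd genes overlapped between cultures (13.7 to 23.5 in 2i and 17.8 to 25.8 in serum), while its makeup differed, and the share of Mxd4 in it was 52.5% and 28.4% in the WT 2i libraries and 13.9% and 22.6% in the P53-/- 2i libraries, against 8.38% and 11.4% for WT and 5.59% and 5.53% for P53-/- ESCs in serum. Summed over the 8 partners of Max measured here (all members but Max and Mlx), there were 2.28 to 2.57 FPKM of partner for each FPKM of Max in serum and 4.43 to 5.82 in 2i. The 2 ranges did not overlap, and these are RNA levels, not protein.

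**Figure D3:**
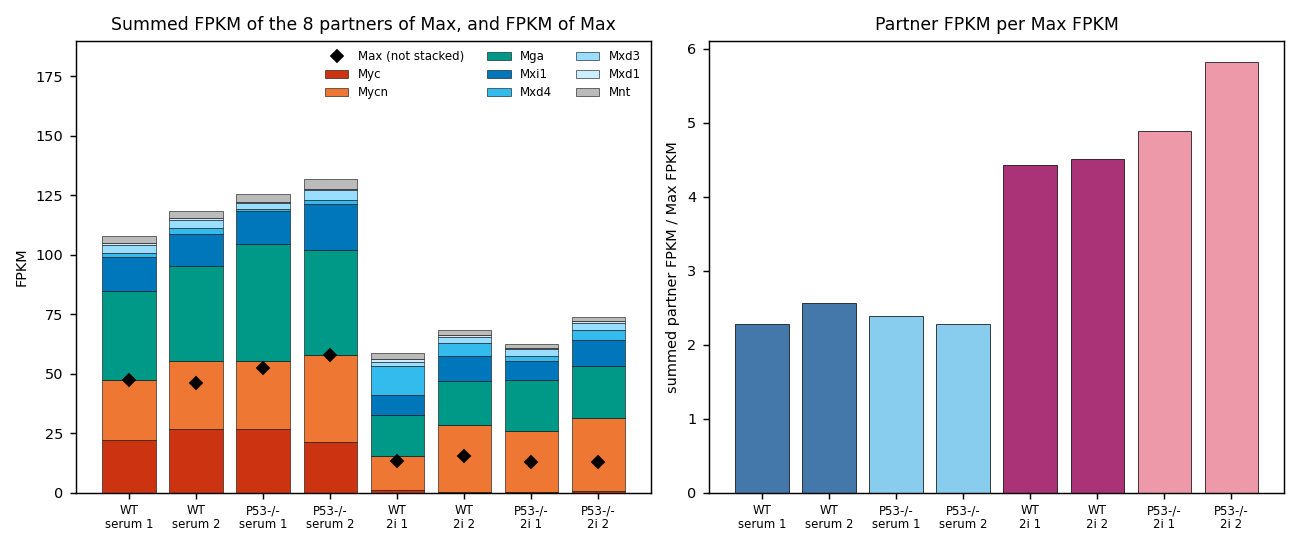
Left, FPKM of the 8 partners of Max stacked for each library, with Max as a diamond that is not part of the stack; right, the ratio of the summed partner FPKM to Max FPKM. In serum the stack reaches 108 to 132 FPKM and the ratio 2.28 to 2.57, and in 2i 58.7 to 73.9 FPKM and 4.43 to 5.82.

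The second question was whether the loss of P53 changes the network in G1 cells. In 2i, 1 of 10 members was called, Mxd4, which was lower in P53-/- ESCs, in a comparison in which 10.3% of all genes were called (5.97% lower and 4.36% higher). The median log2 fold change of the members was -0.085, beside 0.024 for all genes. Mxd4 was at 1.91 and 4.22 FPKM in P53-/- 2i against 12.4 and 5.46 in WT 2i, without overlap, and its log2 difference was -1.5 (SE 0.47, 95% interval -2.59 to -0.41, 2.83-fold, limma adjusted p = 0.0993), just inside the threshold. Leaving out WT 2i library 1, the higher of its pair, gave -0.92 (adjusted p = 0.329), leaving out P53-/- 2i library 1 gave -0.95 (adjusted p = 0.343), and the call was kept under 6 of 18 alternatives and without 1 library only, WT 2i library 2. This comparison and that of WT 2i with WT serum share the WT 2i libraries, in which Mxd4 was highest.

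The other 9 members were not called in 2i. Myc differed by -0.019 on the log2 scale (95% interval -1.26 to 1.22), Mycn by 0.45 (-0.22 to 1.12), Max by -0.15 (-0.43 to 0.13) and Mga by 0.29 (0.023 to 0.56, limma adjusted p = 0.168). The WT 2i values of Myc stood far apart, and the sign of its difference rested on them (0.95 without library 1 and -0.98 without library 2). Without WT 2i library 2, Myc and Mycn passed the test along with Mxd4 (3 of 10, in a fit that called 9.75% of all genes), Myc lower (adjusted p = 0.0824) and Mycn higher (0.92, adjusted p = 0.0617) in P53-/- ESCs. Mxd3 (0.49), Mxd1 (-0.55), Mnt (-0.38), Mlx (-0.36) and Mxi1 (0.038) had adjusted p values from 0.280 to 0.945. By overlap alone, Mxd3 and Mga lay above WT (beside 29% of all genes) and Max, Mxd4 and Mnt below (beside 24.7%).

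In serum, limma called 0 of 10 members, where 1.02% of all genes were called (0.135% higher and 0.883% lower). At an unadjusted limma p under 0.05 there was 1 of 10, Mga. The share of all genes at that unadjusted level was not counted, here or below. Trp53 itself was not called in serum, with a log2 difference of -3.26 (9.58-fold lower, adjusted p = 0.15), while it was in 2i (-2.98, adjusted p = 0.0547). Mga was at 49.1 and 44.1 FPKM in P53-/- serum against 37.1 and 39.8 in WT serum, a log2 difference of 0.28 (95% interval 0.0062 to 0.55, adjusted p = 0.433). Myc differed by -0.027 (-1.26 to 1.21), Max by 0.24 (-0.040 to 0.52), Mnt by 0.37 (-0.098 to 0.83) and Mxd4 by -0.68 (-1.78 to 0.41). By overlap, Max, Mnt and Mga lay above WT (beside 25.7% of all genes) and Mxd1, Mxd4 and Mlx below (beside 21.8%). With 2 libraries against 2, an exact permutation test of a single gene cannot give a p below 0.33, so no such test was made.

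**Figure D4:**
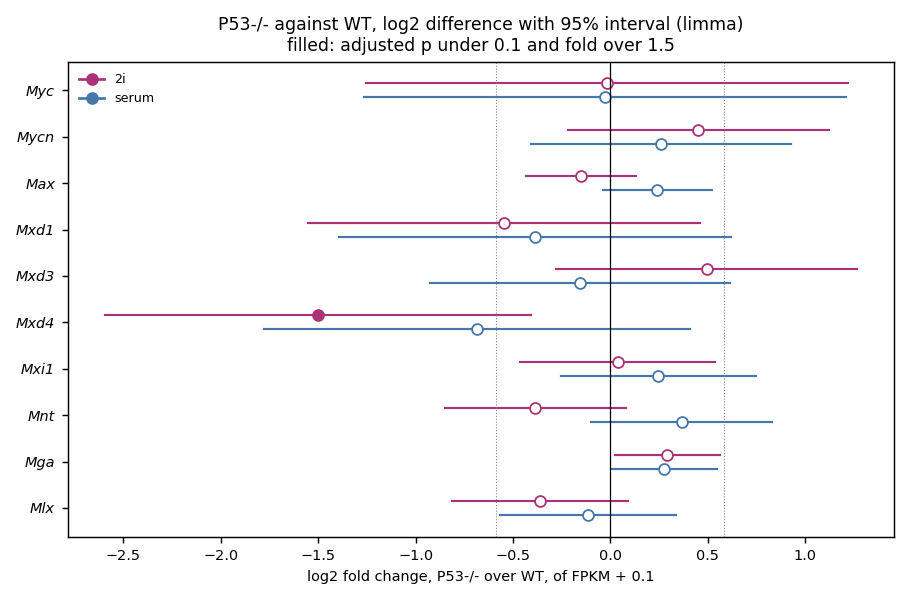
Log2 fold change of FPKM + 0.1 in P53-/- over WT (x axis) for each member (y axis), with 95% intervals from limma, in 2i and in serum; the filled point passed the test. Mxd4 in 2i, at -1.5, is the only filled point, the intervals of Myc span from about -1.3 to 1.2 in both cultures, and Max and Mnt lie left of 0 in 2i and right of 0 in serum.

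The third question was whether losing P53 acts differently in the 2 cultures. No member was called for such a difference (0 of 10 by limma, where 0.207% of all genes were called). At an unadjusted limma p under 0.05 there was 1 of 10, Mnt, and all genes were not counted at that level. Mnt came closest: in P53-/- ESCs it was below WT in 2i and above WT in serum without overlap in either culture, a difference of -0.75 between the effects (SE 0.28, adjusted p = 0.331). Max had the same order of libraries (-0.39, SE 0.17, adjusted p = 0.385). These 2 of 10 members stand beside 3.79% of all genes with that order, and 0 of 10 had the reverse order, beside 3.82% of all genes. For Mxd4 the difference was -0.82 (95% interval -2.36 to 0.73) and for Myc 0.0079 (-1.74 to 1.76), intervals that leave differences of over 1 in either direction for Myc.

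Genes that work with the network were taken from hand-written lists and are described by counts. Of 30 cofactors, further dimer partners and regulators of MYC stability, 17 were lower and 6 higher in WT 2i than in WT serum, with a median log2 fold change of -0.87, and 18 were lower and 5 higher in P53-/- ESCs (-0.85). Among all genes tested, WT ESCs had 28.6% lower and 27.2% higher, and P53-/- ESCs had 30.1% lower and 28% higher. The largest rise in WT was that of Sin3b, a corepressor recruited by MXD proteins and MNT, from 61.1 and 62.3 FPKM to 227 and 228 (1.88, SE 0.11, limma adjusted p = 2.63e-05). Zbtb17, which codes for the MYC partner MIZ1, rose by 1.36, Wdr5, a MYC cofactor, by 0.79, and Mycl, the third Myc gene, by 0.64. The largest falls were those of Usp28 (-2.24), a deubiquitinase that acts on MYC, Cip2a (-2.00), which protects MYC from dephosphorylation, Mlxip (-1.85), a partner of MLX, and Skp2 (-1.69), an F-box protein.

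Between P53-/- and WT in 2i, 3 of these 30 genes were higher and 1 lower, where 4.36% of all genes were higher and 5.97% lower. With a library left out 1 to 4 were higher, and 1 without P53-/- 2i library 1. Usp28 (0.87, limma adjusted p = 0.0308), Cip2a (0.75, adjusted p = 0.0133) and the kinase gene Pim1 (0.73, adjusted p = 0.0375) were higher. Fbxw7, whose product marks MYC for degradation, was lower, at 6.25 and 5.87 FPKM against 10.5 and 13.3 (-0.95, adjusted p = 0.0120). In serum, where 1.02% of all genes were called, 0 of 30 were called by limma, with 1 of 30 at an unadjusted p under 0.05.

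Beside Mga and Max, 10 further genes of PRC1.6 were examined. In WT 2i 5 were lower (28.6% of all genes) and 0 higher (27.2% of all genes), with a median of -0.77, and their summed FPKM was 258 to 307 in the 2i libraries and 590 to 638 in the serum libraries. Rybp (-2.08), Cbx1 (-1.84), Tfdp1 (-1.34) and Cbx3 (-1.20) fell most. The sum rests heavily on Cbx1, with a mean of 71.4 FPKM in WT 2i against 256 in WT serum. Pcgf6 (29.7 against 41.2), E2f6 (9.51 against 11.2) and L3mbtl2 (44.2 against 36.1), among others, were not called in WT. In P53-/- ESCs 5 were lower (30.1% of all genes) and 1, Ring1 (0.61), higher in 2i (28% of all genes). The number higher was 0 without P53-/- 2i library 1 or P53-/- serum library 2, and 2 without P53-/- 2i library 2 or P53-/- serum library 1. By limma, neither P53 comparison called any of the 10, where 10.3% of all genes were called in 2i and 1.02% in serum. At an unadjusted limma p under 0.05 there were 3 of 10 in 2i and 0 in serum, and all genes were not counted at that level.

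Germline genes include several that are known to be held silent by MGA and PRC1.6. Of 22 tested, 8 were higher and 6 lower in WT 2i (median -0.28), shares not far from the 27.2% and 28.6% of all genes. In P53-/- 2i 5 were higher and 8 lower (median -0.58), beside 28% and 30.1% of all genes. Dazl rose from 4.14 and 5.66 FPKM to 41.4 and 44.3 (3.12, SE 0.44, limma adjusted p = 0.000632), Tdrd9 by 3.32, Tex101 by 3.29 and Hormad2 by 2.03. Mael (-2.87), Ddx4 (-2.51), Tdrkh (-2.48) and Zcwpw1 (-1.5) were lower. In P53-/- against WT ESCs, 3 of 22 were higher in 2i (Zcwpw1, Stk31 and Stag3, by 1.62, 1.26 and 1.04) with a median of 0.41, and 2 of 22 in serum (Hormad2 and Stk31, by 1.36 and 1.18) with a median of 1.0, beside 0.024 and 0.017 for all genes. Of all genes, 4.36% were higher in 2i and 0.135% in serum. The count in serum was 0 to 5 over the alternatives. It was 0 without P53-/- serum library 2 or either WT serum library, and 1 without either WT 2i library. In serum 17 of 22 did not overlap and were above WT, where 25.7% of all genes were. In 2i 10 of 22 were above WT without overlap (29% of all genes) and 1 was below (24.7% of all genes). Mga itself was slightly higher and not called in both of these comparisons, as given above.

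Of 45 genes known as targets of MYC, mostly of ribosome production, 21 were lower and 0 higher in WT 2i, where 28.6% of all genes were called lower and 27.2% higher. In P53-/- 2i 21 were lower and 1 higher, where 30.1% of all genes were called lower and 28% higher. Their median log2 fold change was -0.56 and -0.42, and their summed FPKM was 4600 to 5556 in 2i and 8712 to 8952 in serum. Abundant targets weigh most in this sum, and Npm1 alone had means of 1507 FPKM in WT 2i and 2838 in WT serum. Without overlap between cultures, 26 of 45 were lower in 2i (32% of all genes) and 4 higher (28.8% of all genes). Other processing settings called 0 to 3 targets higher in WT 2i. Ncl, coding for nucleolin, fell most, from 436 and 406 FPKM in WT serum to 31.4 and 48.4 in WT 2i (-3.43, SE 0.20, limma adjusted p = 2.63e-05), followed in WT by Las1l (-1.76), Pprc1 (-1.70) and Ddx18 (-1.60). In P53-/- 2i the gene that was higher was Rrp9 (0.62), and 0 genes were higher without P53-/- 2i library 1 and 2 without library 2. The other 24 genes in WT and 23 in P53-/- ESCs were not called.

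Between genotypes in 2i, where 10.3% of all genes were called, 1 of 45 was called, Odc1, the key enzyme of polyamine synthesis, at 152 and 149 FPKM in P53-/- against 82.5 and 105 in WT (0.70, SE 0.14, limma adjusted p = 0.0295), and the median was 0.024. No target was higher without WT 2i library 1 or without either P53-/- 2i library. In serum 0 of 45 were called by limma, beside 1.02% of all genes, with 2 of 45 at an unadjusted p under 0.05 and a median of -0.033. When the compared groups were fitted alone, 0 genes of these 4 lists and 0 G2/M genes were called between P53-/- and WT in either culture.

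Cell cycle genes moved alongside these results although all cells were sorted in G1. Of 16 G2/M genes, 15 were lower in WT 2i (28.6% of all genes) and 11 in P53-/- 2i (30.1% of all genes) than in serum. Between genotypes 7 of 16 were higher in P53-/- than in WT 2i (4.36% of all genes), Bub1 (0.93) and Kif20a (0.91) most, and the number was 4 to 10 with a library left out, lowest without P53-/- 2i library 1. In serum limma called 0 of 16 between genotypes (1.02% of all genes), with 4 of 16 at an unadjusted p under 0.05. The summed FPKM of the 16 was 904 to 949 in the serum libraries, 374 and 434 in the WT 2i libraries and 649 and 563 in their P53-/- counterparts. Their part in the values of Myc, Max, Mxd4 and the MYC targets was not tested.

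**Figure D5:**
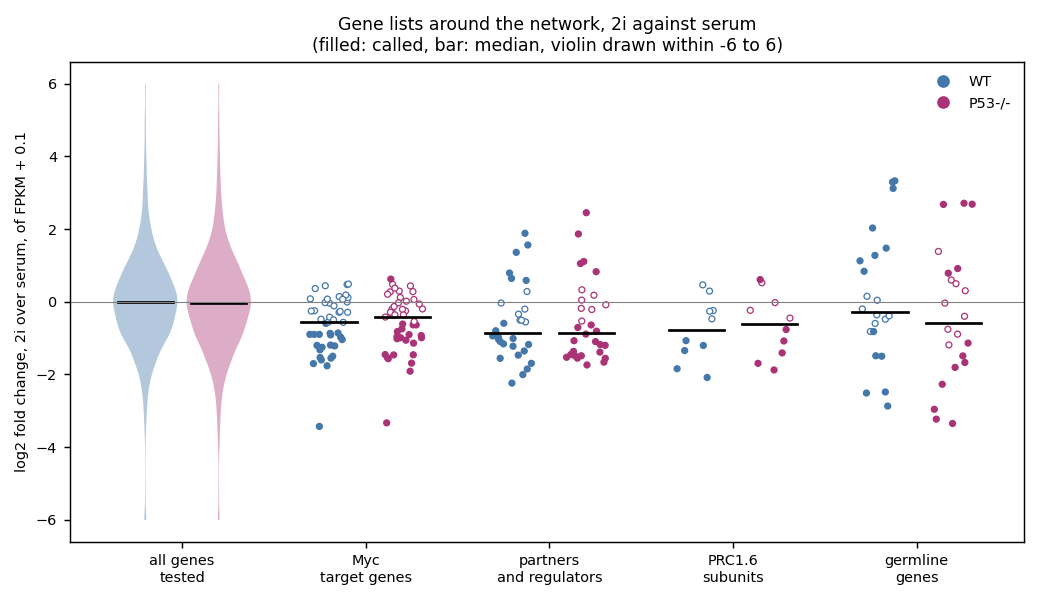
Log2 fold change of FPKM + 0.1 in 2i over serum (y axis) for the genes of 4 lists, 1 point per gene, filled where called, with bars for medians, in WT and P53-/- ESCs; violins show all 12572 genes tested. MYC targets, partners and PRC1.6 subunits have medians from -0.87 to -0.42, below the medians near 0 of all genes. Germline genes spread from about -3.3 to 3.3, with medians of -0.28 in WT and -0.58 in P53-/- ESCs.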

How the data were processed

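The analysis covered 8 RNA-seq libraries of G1-sorted ESCs, 2 for each genotype (WT or P53-/-) in each culture (serum or 2i). The labels give total RNA, depletion of ribosomal RNA, random primers and a stranded kit. The authors deposited FPKM values per gene symbol; the submitters' processing notes name STAR, Cufflinks, DESeq2 and mm9 without their roles. No further scaling was applied. Columns name genotype and culture only, and 4 labelled samples (P21-/- and WT in 2i) without a column were not analysed here. Chromosomes, transcript lengths and exon overlaps came from GENCODE M21 (GRCm38), and no mm9 coordinate was printed.

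Genes averaging 0.5 FPKM or more (12572) were tested with limma (version 3.58.1, R 4.3.3) after taking log2(FPKM + 0.1), in one fit of the 4 groups (eBayes with trend, Benjamini-Hochberg adjustment). Calls needed an adjusted p below 0.1 and a more than 1.5-fold change, as in the study. Depth was estimated from the steps of low FPKM values in 7147 genes with 1 transcript of over 1500 bases. Libraries are not stated to come from separate cultures, so p values measure the spread between these samples, which may be technical.

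Members, lists and tests were chosen with earlier results of these data known. Named are all members, Trp53, for each list up to 4 called genes with the largest rises and falls per comparison (mean FPKM of at least 1; some are left out for brevity), and the 3 genes most like Myc and Mycn. The alternatives were other pseudocounts, filters, scalings, fits and thresholds, the removal of 1301 small RNA genes, and each library left out. The fit was tested on simulated data. Scripts ran in Python 3.11.15 (pandas 2.3.3, numpy 2.4.6), and plots were drawn with matplotlib 3.10.9.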

Additional observations from a re-analysis of the deposited data

Results flagged for a closer look

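Max and Mnt are listed here because both P53-/- libraries lay below WT in 2i and above WT in serum, an order that 3.79% of all genes showed. Max was at 12.8 and 12.7 FPKM in P53-/- against 13.2 and 15.2 in WT in 2i, and at 52.5 and 57.9 against 47.2 and 46.1 in serum. Its P53 effect in 2i minus that in serum was -0.39 on the log2 scale (limma adjusted p = 0.385). Mnt was at 1.63 and 1.81 against 2.34 and 2.20 in 2i, and at 3.47 and 4.27 against 2.97 and 2.96 in serum, a difference of -0.75 (limma adjusted p = 0.331). Neither difference passed the test, and no group was large enough to be examined for a single outlying library.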

How the results depend on the processing

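The falls of Myc, Max and Mga in 2i in both genotypes, the rise of Mxd4 in WT 2i and the fall of Mnt in P53-/- 2i were called under each of the 18 alternatives. Of 895 values of single members, 825 kept their direction and call, 32 lost the call, 3 gained one and 35 changed sign. Mxd3 lost its call in WT 2i under 10 of 18 alternatives and Mxi1 under 6, and in P53-/- 2i Mxd4 lost it under 3 and Mxi1 under 1. Mxd4 lost its call between P53-/- and WT in 2i under 12 of 18. Over all 18 its log2 difference there was -2.08 to -0.92. In that comparison 0 members were called with a pseudocount of 0.01, all genes above 0, the compared groups only, no trend or an adjusted p under 0.05. Members called between cultures numbered 4 to 7 in WT and 5 to 6 in P53-/- ESCs with a library left out, beside 6358 to 7027 and 6879 to 7382 of all genes.

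All genes called between P53-/- and WT in 2i (1299) numbered 193 with the compared groups only, 771 at an adjusted p under 0.05 and 495 to 1259 with a library left out. In serum (128) they numbered 37, 73 and 63 to 168. For the difference of the effects (26) they numbered 66 with a pseudocount of 1, 40 without a trend, 40 without small RNA genes, 16 at an adjusted p under 0.05 and 22 to 74 with a library left out.

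Signs changed as follows, each for a difference that was not called. The difference of the P53 effects was -0.052 for Myc with a pseudocount of 1 and -0.013 for Mga after quantile normalization. The P53 effect on Myc in 2i was 0.068 with a pseudocount of 0.01 and 0.15 after quantile normalization. The culture effect on Mxd1 after quantile normalization was -0.075 in WT and -0.13 in P53-/- ESCs. With a library left out, the culture effect ran in WT from -0.072 to 0.28 for Mlx, -0.22 to 0.81 for Mxd1 and -0.88 to 0.071 for Mycn, and in P53-/- from -0.40 to 0.13 for Mlx, -0.038 to 0.31 for Mxd1 and -0.50 to 0.32 for Mxd3. The P53 effect in 2i ran from -0.98 to 0.95 for Myc, -0.022 to 0.92 for Mycn and -0.16 to 0.24 for Mxi1, and in serum from -0.20 to 0.14 for Myc and -0.57 to 0.25 for Mxd3. The difference of the effects ran from -0.96 to 0.97 for Myc, -0.28 to 0.66 for Mycn, -0.061 to 0.094 for Mga, -0.51 to 0.021 for Mlx, -0.67 to 0.36 for Mxd1 and -0.45 to 0.030 for Mxi1. The causes were not tested.

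No paired analysis was possible because the columns carry no replicate numbers. Leaving out a library left an arm with 1 library, assumed to vary like the others. Mxd1 was not tested at a mean FPKM of at least 1. Depth limits Myc in 2i most, at an estimated 2 to 17 fragments a library.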
